A study of Rattus norvegicus with 939 samples.

Results

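Chlorpromazine and fluphenazine, the 2 phenothiazine antipsychotics among the 125 compounds of a primary rat hepatocyte expression series, are described here. Their arrays were taken by the compound named in the sample labels: 18 of the 826 treated arrays, out of 939 arrays in all. Chlorpromazine was given at 43.9 uM for 0.67 d (3 arrays) or 1 d (3 arrays), against 6 vehicle arrays at each time. Fluphenazine was given at 45 uM for 0.67 d (3 arrays) or 1 d (3 arrays), against 14 vehicle arrays in a set of 8 and a set of 6, each split evenly between both times. A later repeat gave chlorpromazine at 43.9 uM for 1 d (6 arrays), against 6 vehicle arrays whose labels name chlorpromazine alone. All cultures, controls included, received the vehicle dimethyl sulfoxide, and the labels give the cells as primary rat hepatocytes with no strain or age of the donor animals. Vehicle arrays of the first chlorpromazine study and of the fluphenazine study also served other compounds, while the 3 comparisons against vehicle shared no array with each other. Replicates are arrays that the labels list apart, without saying whether cells came from separate animals, so p-values measure the spread between arrays.

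Phenothiazines block dopamine receptors in the brain, which is the basis of their use in psychosis. Both molecules carry the same tricyclic core with sulfur and nitrogen in the middle ring. Chlorpromazine has a chlorine on an outer ring and a dimethylaminopropyl side chain, whereas fluphenazine has a trifluoromethyl group there and a piperazine side chain that ends in a hydroxyethyl group. As lipophilic amines they collect in acid compartments such as lysosomes, where drugs of this kind are known to slow cholesterol export and phospholipid breakdown. In the liver, chlorpromazine is also known for disturbed bile flow. Cells that sense too little cholesterol in the endoplasmic reticulum switch on the genes of cholesterol synthesis through the transcription factor SREBP2. Foreign planar molecules can bind the aryl hydrocarbon receptor (AhR), a transcription factor that pairs with ARNT and switches on cytochrome P450 genes such as Cyp1a1.

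All values are log2 intensities of Affymetrix rat genome arrays after robust multi-array averaging, and a difference of 1 on this scale is a doubling. Of the 31099 probe sets, those with a single gene symbol gave 14218 genes, each read from its brightest probe set. A gene was called when limma's moderated test gave a Benjamini-Hochberg adjusted p of at most 0.01 and the difference was at least 1.5-fold. Hepatocyte markers were high in every group: over 18 markers the mean log2 level lay between 11.17 and 11.91 in vehicle arrays. Treated arrays lay between 10.81 and 11.6 in both first studies and reached down to 9.98 in the repeat. That lowest value belonged to treated replicate 5 of the repeat, whose mean correlation with its own group was 0.9311. The pair of repeat arrays numbered 4 read higher for Kupffer cell markers, with means over 10 markers of 7.36 (treated) and 8.59 (vehicle) against 5.97 to 6.95 in the other repeat arrays. Adgre1, the macrophage marker F4/80, read 6.99 and 9.49 on that pair and at most 3.67 on the other repeat arrays. In bulk RNA, fewer cells of a type and less RNA per cell cannot be told apart. The part of these arrays in the repeat was not tested beyond leaving them out, and the repeat is given with and without pair 5.

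Both compounds changed about the same number of genes and, for the most part, in the same direction. Chlorpromazine called 730 genes against vehicle (5.13% of those tested), of which 316 were higher (2.22%) and 414 lower (2.91%). Fluphenazine called 721 (5.07%), 254 higher (1.79%) and 467 lower (3.28%). Of these, 509 were called in the same direction with both compounds, 195 higher and 314 lower, and 0 in opposite directions. The 509 genes are 69.7% of the chlorpromazine calls and 70.6% of the fluphenazine calls. Across all 14218 genes the changes with each compound correlated with Pearson r 0.881 and Spearman rho 0.799, a description over genes, which are not independent replicates. Set against the other exposures of the series under the same call rule, neither compound was extreme: the median of 128 compound and dose combinations was 861.5 called genes, and the range was 0 to 4208.

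**Figure D1:**
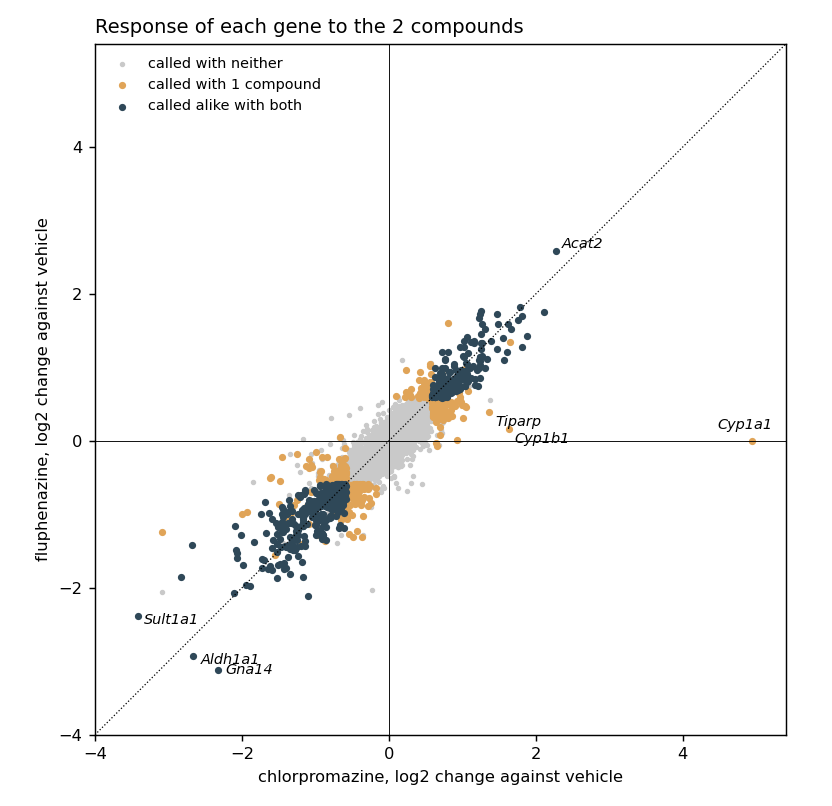
Log2 change against vehicle with chlorpromazine in the first study (x axis) and with fluphenazine (y axis) for each of 14218 genes; dark points were called alike with both compounds, orange points with 1 compound, grey points with neither, and the dotted line marks equal change. Most called genes lie near the line, and Cyp1a1 lies far to the right of it, at 4.94 with chlorpromazine and -0.0045 with fluphenazine.

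The repeat gave fewer calls with the same direction. Only 30 genes passed (0.211%), 2 higher (0.0141%) and 28 lower (0.197%), and 28 of the 30 had been called in the first study in the same direction. Arrays with the same replicate number in the repeat were hybridized on the same day and deviated together. With that number as a block, 215 genes passed (1.51%), 34 higher (0.239%) and 181 lower (1.27%), and without pair 5 the blocked count was 535 (3.76%), 177 higher (1.24%) and 358 lower (2.52%). Of the 730 genes called in the first study, 728 had the same sign in the repeat (99.7%), and the changes over all genes correlated with r 0.797 and rho 0.6. The typical 95% interval of a change spanned 0.37 log2 units to each side in the unblocked repeat, against 0.18 in the first study. Leaving out 1 array at a time, the unblocked count was 95 without treated replicate 5, 80 without treated replicate 6, and between 6 and 20 without any other array. With each array's median subtracted, the repeat's unblocked calls were 10 higher and 45 lower.

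Cyp1a1 showed the largest contrast between the compounds. Cyp1a1 encodes the P450 enzyme that oxidizes polycyclic aromatic hydrocarbons, and it is the classic AhR target. In the first study, chlorpromazine arrays read 12.29, 12.43 and 12.03 at 0.67 d and 12.38, 12.31 and 11.79 at 1 d. Their 12 vehicle arrays ran from 5.15 through a median of 7.53 to 9.31, so every treated array was above every control, although the controls themselves were widely spread. The repeat arrays gave the same picture, at 10.72 to 12.35 (median 11.8) against 5.32 to 8.06 (median 5.68) in vehicle. Fluphenazine arrays read 5.85, 8.22 and 7.41 at 0.67 d and 5.97, 8.91 and 8.09 at 1 d. These lay inside the range of their 14 vehicle arrays, 5.64 to 9.79 with a median of 7.52.

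The change in Cyp1a1 was 4.94 ± 0.435 (SE, n = 6 and 12) with chlorpromazine, or 30.7-fold, with an adjusted p of 2.67e-07. In the repeat it was 5.45 ± 0.46 (SE, n = 6 and 6), or 43.6-fold, with an adjusted p of 0.00018. With fluphenazine it was -0.0045 ± 0.49 (SE, n = 6 and 14), and the 95% interval ran from -1.015 to 1.005, so changes of about 2-fold in either direction lie inside it. Taken by time, the fluphenazine difference in Cyp1a1 was -0.96 at 0.67 d and 0.95 at 1 d. The difference between the compounds was tested in a joint model that set each compound against its own controls. In that test Cyp1a1 was lower with fluphenazine by 30.8-fold (log2 difference -4.94, 95% interval -6.35 to -3.54, adjusted p 0.000142).

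Tiparp, an ADP-ribosyltransferase that is induced by AhR and in turn dampens it, was the other gene that the test of the compounds called. Chlorpromazine arrays lay at 9.6 to 10.58 (median 10.16) against 8.51 to 8.98 (median 8.8) in vehicle, with no overlap. Fluphenazine arrays lay at 8.88 to 9.58 (median 9.31) against 8.51 to 9.21 (median 8.92), which overlap. Tiparp was 2.58-fold higher with chlorpromazine (log2 change 1.37 ± 0.10, SE) and 0.40 ± 0.08 (SE) higher on the log2 scale with fluphenazine, under the 1.5-fold bound with an adjusted p of 0.00114. In the repeat the log2 change of Tiparp was 1.04, with an adjusted p of 0.0326 that fell to 0.00602 with the replicate block. The difference of fluphenazine minus chlorpromazine for Tiparp was -0.97 (95% interval -1.24 to -0.70, adjusted p 0.000142). These 2 genes were the only calls among 14218 in that test (0.0141%). No gene was called higher with fluphenazine than with chlorpromazine, and 473 genes differed at an unadjusted p under 0.05.

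Both calls were lost under some alternatives. With hybridization day as a block both adjusted p-values became 0.0103 (log2 differences -3.99 for Cyp1a1 and -0.98 for Tiparp). At 0.67 d alone the Cyp1a1 difference was -5.39 (adjusted p 0.0273). Against the repeat, which shares no array with the first chlorpromazine study, it was -4.49 at 1 d (95% interval -6.17 to -2.81, adjusted p 0.194). The 1 d fluphenazine arrays and their controls were used in both comparisons of the compounds.

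Cyp1b1, an extrahepatic P450 of estrogen and hydrocarbon metabolism, followed the same pattern at a lower intensity. Chlorpromazine arrays read 6.27 to 8.94 (median 6.98) against 5.09 to 6.22 (median 5.45) in vehicle, and fluphenazine arrays read 5.19 to 5.56 against 5.14 to 5.42. Cyp1b1 was 3.09-fold higher with chlorpromazine in the first study and 2.48-fold higher in the repeat (adjusted p 0.000155 and 0.00949). With fluphenazine its log2 change was 0.16, with an adjusted p of 0.0392, and the difference between the compounds was -1.46 (95% interval -2.02 to -0.91) with an adjusted p of 0.0264, which did not pass. With the replicate number as a block it passed, at -1.38 with an adjusted p of 0.00528. Cyp1a1 and Cyp1b1 were the 2 genes called in both chlorpromazine studies and not with fluphenazine.

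Not every AhR target was called. Of 7 measured members, 3 were called higher with chlorpromazine, 0 with fluphenazine and 2 in the repeat (3 with the block, 5 with the block and without pair 5). The share of all genes called higher was 2.22%, 1.79% and, in the unblocked repeat, 0.0141%. The list median was 0.37 with chlorpromazine, -0.0045 with fluphenazine and 0.53 in the repeat, against 0.02, 0.02 and 0.00 over all genes. Cyp1a2, the caffeine-oxidizing P450 next to Cyp1a1 in the genome, had log2 changes of 0.30, -0.57 and 0.53 in the same order. Its fluphenazine value had an adjusted p of 0.000389 but was just under the 1.5-fold bound. Nqo1, a quinone reductase, had log2 changes of 0.37, -0.08 and 0.44, and Ahrr, the AhR repressor, 0.24, 0.02 and 0.35, none of them called.

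**Figure D2:**
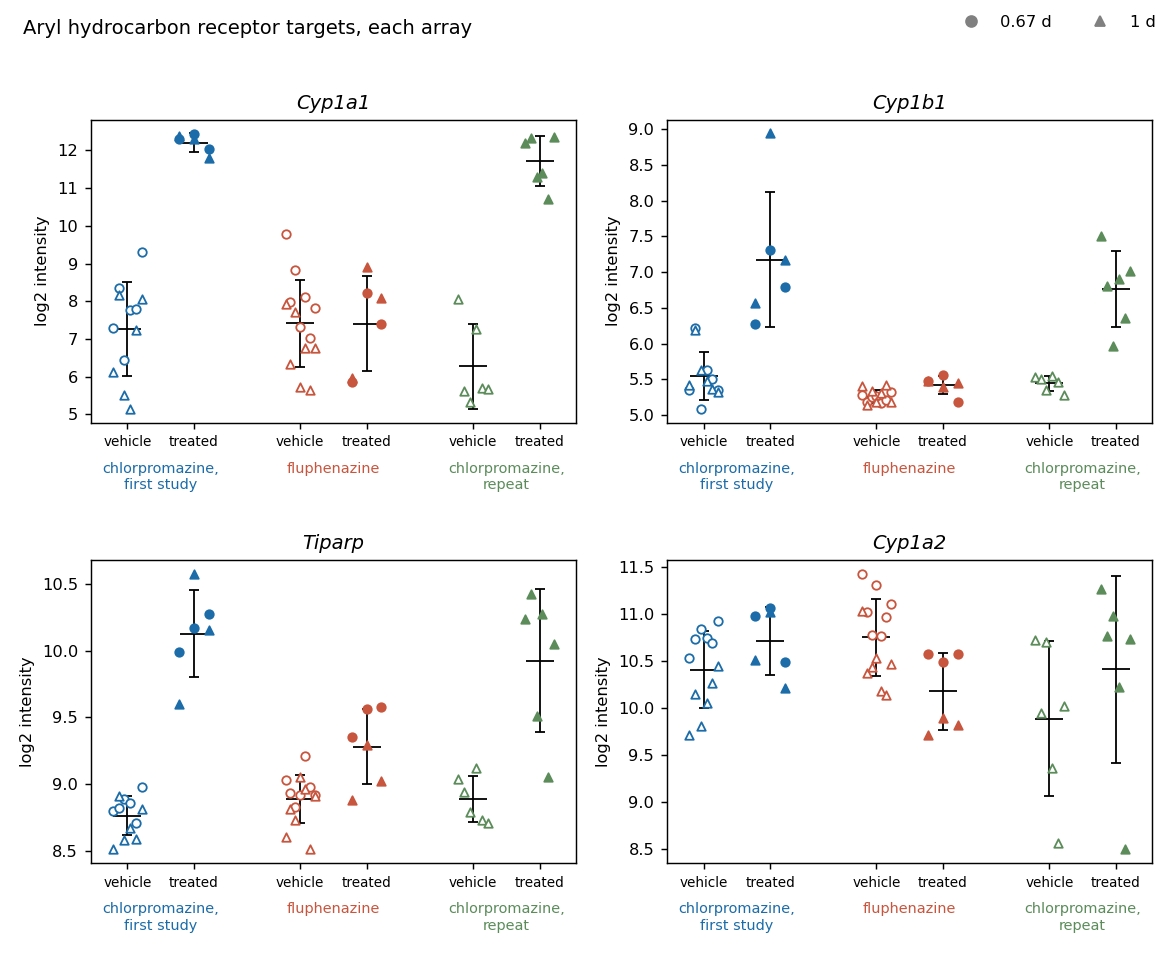
Log2 intensity of 4 AhR targets on every array, vehicle (open) and treated (filled), for chlorpromazine in the first study (blue), fluphenazine (red) and the chlorpromazine repeat (green); circles are 0.67 d and triangles 1 d, bars give the mean and SD. For Cyp1a1, all chlorpromazine arrays of both studies sit above their controls, and fluphenazine arrays lie among theirs.

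Promoter sequence was available for 5 of the 7 measured targets, in the RefSeq table of build GRCr8 that holds 250 bases before to 50 bases after each gene's start. Cyp1a1 has no entry in it. The AhR and ARNT pair recognizes the core GCGTG, searched on both strands as GCGTG or CACGC. The core was present in 4 of the 5 promoters and in 45.8% of the 11734 promoters of genes tested, so a match describes these letters and is not a site. The windows of Cyp1b1 (chr6:21094315-21094614, + strand, 2 matches) and Tiparp (chr2:152063519-152063818, + strand, 1 match) are shown because these 2 genes moved with chlorpromazine beside Cyp1a1, with the core in capitals.
Cyp1b1: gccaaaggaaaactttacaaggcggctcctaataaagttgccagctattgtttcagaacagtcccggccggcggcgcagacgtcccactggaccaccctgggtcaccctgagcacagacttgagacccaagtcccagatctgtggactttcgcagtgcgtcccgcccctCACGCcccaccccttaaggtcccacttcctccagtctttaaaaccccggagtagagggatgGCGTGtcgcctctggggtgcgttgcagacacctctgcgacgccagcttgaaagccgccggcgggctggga
Tiparp: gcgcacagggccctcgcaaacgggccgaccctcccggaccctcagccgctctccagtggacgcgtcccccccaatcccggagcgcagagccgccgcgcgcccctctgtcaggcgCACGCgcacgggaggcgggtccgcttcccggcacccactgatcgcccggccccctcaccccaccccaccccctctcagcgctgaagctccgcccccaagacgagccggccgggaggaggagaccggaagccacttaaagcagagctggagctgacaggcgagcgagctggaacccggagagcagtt

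Within the series, AhR target calls were not rare. Among the 126 other exposures, Cyp1a1 was called higher in 25 and lower in 22, Cyp1b1 higher in 12 and Tiparp higher in 44. Clomipramine is a tricyclic antidepressant that carries a ring chlorine and the same dimethylaminopropyl chain as chlorpromazine on a different ring system. It was given at 50 uM with vehicle arrays shared with chlorpromazine, so its values are only set beside the others. Its log2 changes were 0.87 for Cyp1a1, 0.20 for Cyp1b1 and 0.23 for Tiparp.

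Most genes of cholesterol synthesis rose with both compounds. Of 17 measured genes, 12 were called higher with chlorpromazine and 14 with fluphenazine, and none was called lower. The same 12 were called with both. The share of all genes called higher was 2.22% with chlorpromazine and 1.79% with fluphenazine. Their median log2 change was 1.15 (2.22-fold) with chlorpromazine and 1.36 (2.57-fold) with fluphenazine, against 0.02 over all genes. In the repeat, 0 passed, 1 passed with the block and 12 passed with the block and without pair 5, while all 17 changes were positive with a median of 0.56.

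Acat2, the cytosolic thiolase that makes acetoacetyl-CoA at the head of the pathway, had the largest change of the 17. Its chlorpromazine arrays read 9.51, 10.01 and 9.98 at 0.67 d and 9.6, 9.76 and 10.07 at 1 d, against 6.95 to 8.07 (median 7.54) in vehicle. Fluphenazine arrays read 10.37, 10.06 and 10.03 at 0.67 d and 9.77, 10.1 and 10.14 at 1 d, against 6.98 to 8.11 (median 7.4). Neither compound's arrays overlapped their controls. The repeat arrays read 9.8, 9.95, 9.38, 9.4, 7.68 and 8.98 against 7.34 to 8.15, where the value of 7.68 is replicate 5 and is the only treated array within the vehicle range. Acat2 was 4.83-fold higher with chlorpromazine (log2 2.27 ± 0.15, SE) and 5.97-fold higher with fluphenazine (2.58 ± 0.14), with a repeat value of 1.64 ± 0.31. Acat2 was called higher in 52 of the 126 other exposures, and with clomipramine its log2 change was 1.77.

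Further members are given in the order of the pathway's steps. Mvd, the mevalonate diphosphate decarboxylase, was 2.4-fold higher with chlorpromazine and 3.01-fold with fluphenazine. Idi1, which isomerizes isopentenyl diphosphate, was 2.77-fold and 3.3-fold higher, and Fdps, which joins these units into farnesyl diphosphate, 2.39-fold and 2.73-fold. Squalene is then made by Fdft1 (2.04-fold and 2.57-fold) and oxidized by Sqle, the target of allylamine antifungals (2.22-fold and 2.51-fold). Lss, which closes the sterol rings, was 3.07-fold and 3.02-fold higher, and the demethylases Cyp51 and Msmo1 were 2.23-fold and 2.47-fold higher with chlorpromazine and 2.57-fold and 2.87-fold with fluphenazine. Hsd17b7, a ketosteroid reductase of the late pathway, was 2.38-fold and 3.4-fold higher. All of these were called with both compounds. Called with neither were Mvk, the mevalonate kinase (log2 changes of 0.37 and 0.50), Ebp, a sterol isomerase (0.26 and 0.54), and Nsdhl of the late steps (-0.02 and 0.23). Pmvk, the phosphomevalonate kinase, and Dhcr7, which makes cholesterol in the last step, were called with fluphenazine (log2 changes of 0.80 and 0.72) and were under the bound with chlorpromazine (0.57 and 0.43).

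Tested directly, no cholesterol synthesis gene was called different between the compounds. The median difference of fluphenazine minus chlorpromazine over the 17 genes was 0.25 log2 units. For 11 genes (64.7%, against 91.1% of all genes) the whole 95% interval lay within 1.5-fold. For 6 of the 17 it excluded 0 before adjustment for the number of genes, all toward higher values with fluphenazine. Among all 14218 genes, 472 such intervals excluded 0. Hsd17b7 had the largest such difference, 0.52 (95% interval 0.06 to 0.98, adjusted p 1).

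**Figure D3:**
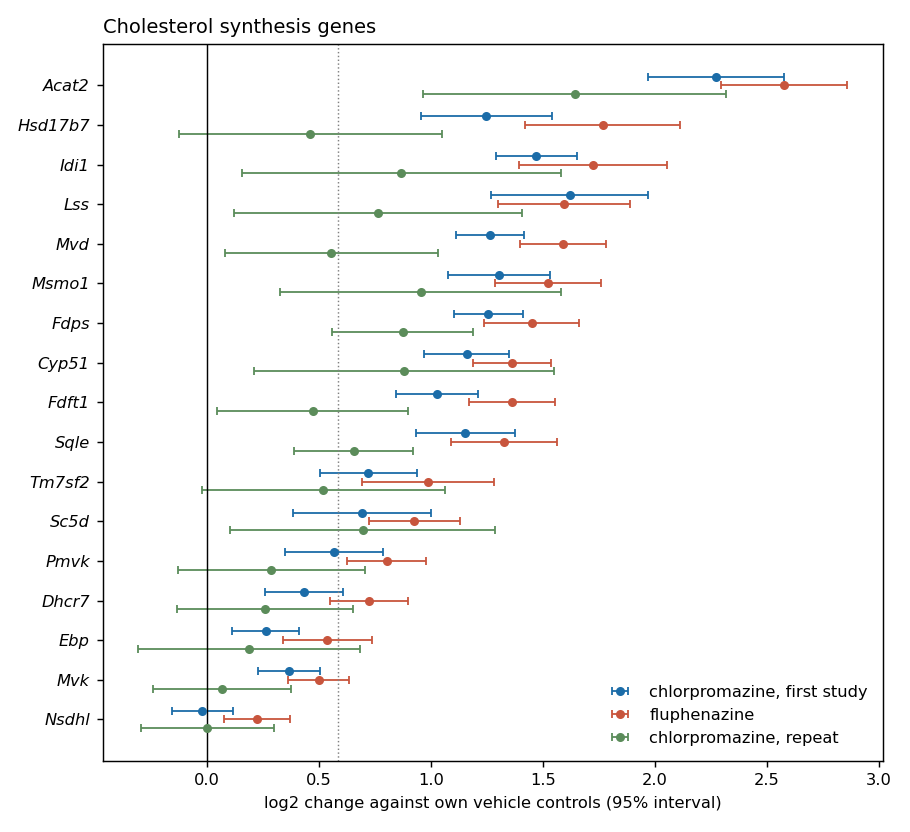
Log2 change against own vehicle controls of the 17 measured cholesterol synthesis genes (rows) with chlorpromazine in the first study, fluphenazine and the chlorpromazine repeat; points are estimates, bars 95% intervals, and the dotted line marks 1.5-fold. Acat2 is highest with both compounds, at 2.27 and 2.58, and the repeat values lie lower with wider intervals.

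Genes around the pathway were mixed. Insig1, the endoplasmic reticulum protein that holds SREBP back when sterol is plentiful and is itself a SREBP target, read 12.25 to 12.83 (median 12.7) with chlorpromazine against 10.59 to 12.07 (median 11.34). With fluphenazine Insig1 read 12.58 to 13.05 (median 12.84) against 10.77 to 12.15 (median 11.75), again without overlap, and it was 2.36-fold and 2.2-fold higher. Stard4, a carrier of cholesterol through the cytosol, was 1.55-fold and 1.68-fold higher. Npc2, the lysosomal protein that hands cholesterol on for export, was 1.54-fold higher with fluphenazine, and 1.48-fold with chlorpromazine, which is under the bound. Lcat, the secreted enzyme that esterifies cholesterol on lipoproteins, was 1.81-fold lower with chlorpromazine and 1.47-fold lower with fluphenazine. Of the 13 measured genes of cholesterol uptake, transport and regulation, 2 were called higher and 1 lower with chlorpromazine and 3 higher with fluphenazine. The list medians were 0.13 and 0.04, and the share of all genes called was 5.13% and 5.07%.

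Of 16 genes of fatty acid synthesis and desaturation, 8 were called higher with chlorpromazine and 7 with fluphenazine (6 of them shared), none was called lower, and the medians were 0.55 and 0.53. Among members that did not pass, Gpam, of glycerolipid synthesis, had log2 changes of -0.39 and -0.36, and Thrsp, a lipogenic regulator, -0.39 and 0.02. In the repeat none was called, with or without the block, and 6 were called with the block and without pair 5. Pnpla3, a lipase of lipid droplets, was 3.44-fold and 3.55-fold higher, and Fasn, the fatty acid synthase, 2.94-fold and 2.63-fold. Elovl6, which lengthens palmitate, was 1.7-fold and 2.16-fold higher, Fads1, a desaturase of polyunsaturated fatty acids, 1.67-fold and 1.78-fold, and Acly, which supplies cytosolic acetyl-CoA, 1.51-fold and 1.57-fold. Lpin1, the phosphatidate phosphatase, was 2.06-fold and 2.07-fold higher, whereas its relative Lpin2 was 1.5-fold and 1.54-fold lower. Chka, the choline kinase that starts phosphatidylcholine synthesis, was 1.87-fold higher with chlorpromazine and 1.39-fold with fluphenazine, the latter under the bound. Among the 20 genes of phospholipid and sphingolipid metabolism these were the calls, with list medians of 0.13 and 0.09. The share of all genes called was 5.13% with chlorpromazine and 5.07% with fluphenazine.

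The vacuolar proton pump, which acidifies lysosomes, had small positive changes throughout. All 15 subunit genes were above vehicle with chlorpromazine, with fluphenazine and in the repeat, with medians of 0.56, 0.44 and 0.38. Of these, 4 were called with chlorpromazine, 3 with fluphenazine and 0 in the repeat (4 with the block and without pair 5). The share of all genes called higher was 2.22% with chlorpromazine and 1.79% with fluphenazine. Atp6v0b, a subunit of the membrane ring, read 11.52 to 11.63 (median 11.56) with chlorpromazine against 10.18 to 10.83 (median 10.53). With fluphenazine Atp6v0b read 11.41 to 11.66 (median 11.61) against 10.29 to 10.85 (median 10.65), and neither pair of groups overlapped. It was 2.08-fold and 1.95-fold higher, and 1.74-fold in the repeat (adjusted p 0.0654). The subunits Atp6v1f and Atp6v1c1 were called with both compounds, at 1.73-fold and 1.7-fold and at 1.69-fold and 1.54-fold. Atp6v1b2 was 1.72-fold higher with chlorpromazine and, at 1.49-fold, under the bound with fluphenazine. Calls of these 4 subunits were common in the series. Among the 126 other exposures, Atp6v0b was called higher in 66, Atp6v1b2 in 60, Atp6v1f in 55 and Atp6v1c1 in 43. For all 15 genes the 95% interval of the difference between the compounds lay within 1.5-fold.

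Lysosomal hydrolases and membrane proteins changed less. Of 30 measured genes, 4 were called higher with each compound and none lower, with medians of 0.27 and 0.22. Ctns, the cystine exporter of lysosomes, read 8.18 to 8.63 (median 8.4) with chlorpromazine against 7.36 to 7.91 (median 7.58), and 8 to 8.7 (median 8.3) with fluphenazine against 7.33 to 7.82 (median 7.55). Both sets of Ctns values lay wholly above their controls, by 1.78-fold and 1.73-fold. Naglu, which breaks down heparan sulfate, was 1.52-fold and 1.62-fold higher, and Gla, the alpha-galactosidase, 1.5-fold and 1.51-fold. The fourth call was Neu1, a sialidase, with chlorpromazine (1.56-fold) and Npc2 with fluphenazine. Rragd, a small GTPase that links lysosomal amino acids to mTORC1, read 8.21 to 8.55 (median 8.36) with chlorpromazine against 5.36 to 7.16 (median 6.18). With fluphenazine Rragd read 8.13 to 8.46 (median 8.26) against 5.4 to 7.09 (median 6.56). It was 4.3-fold and 3.38-fold higher with the compounds, and 2.69-fold in the repeat, with an adjusted p of 0.0399 that became 0.00773 with the block. Among the 126 other exposures, Rragd was called higher in 59 and Ctns in 56. Neu1 was called higher in 33 of them, Naglu in 26, Gla in 18 and Npc2 in 5. Of 14 autophagy genes, Uvrag, which acts in vesicle fusion, was the only call, at 1.57-fold with chlorpromazine and 1.35-fold, uncalled, with fluphenazine. The share of all genes called was 5.13% and 5.07%. For all 30 lysosomal and all 14 autophagy genes the interval of the difference between the compounds lay within 1.5-fold, as it did for 91.1% of all genes.

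The palindrome TCACGTGA, bound by the lysosomal regulators TFEB and TFE3, was found in the promoter windows of 2 of 12 proton pump genes and 3 of 25 lysosomal genes with an entry, against 1.46% of all promoters. It was found in 5 of the 170 promoters of genes called higher with both compounds (2.94%) and in 0 of 254 promoters of genes called lower with both. The sterol response element, searched as TCACNCCAC on both strands, was found in 0 of 14 cholesterol synthesis promoters and in 1.12% of all, which says only that these letters are not in these windows. A sterol match with G at the open letter also contains CACGC.

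Genes of the ATF4 and CHOP stress response, which cells switch on when amino acids run short or proteins misfold, were called higher in part. Of 23 genes, 16 were called higher with chlorpromazine and 9 with fluphenazine, 8 of them shared, with medians of 0.78 and 0.54. The share of all genes called higher was 2.22% with chlorpromazine and 1.79% with fluphenazine. In the repeat 0 were called, 0 with the block and 5 with the block and without pair 5, and the median was 0.16. Ddit3, which encodes CHOP, read 8.97 to 10.36 (median 9.9) with chlorpromazine against 7.5 to 9.96 (median 8.39), and 8.94 to 10.89 (median 9.8) with fluphenazine against 7.76 to 9.58 (median 8.61). Both pairs of Ddit3 groups overlapped, and it was called at 2.41-fold and 2.23-fold. Gdf15, a stress hormone that lowers appetite, was 2.06-fold and 1.94-fold higher, Trib3, a pseudokinase that dampens the response, 2.05-fold and 1.68-fold, and Asns, the asparagine synthetase, 1.89-fold and 1.71-fold. Stc2, a secreted glycoprotein, was 1.73-fold and 1.51-fold higher. Slc7a11, the cystine importer, was 2.55-fold higher with fluphenazine, while its 3.13-fold change with chlorpromazine had an adjusted p of 0.0128. Fgf21, a fasting hormone of the liver, was 1.57-fold higher with chlorpromazine and had a log2 change of -0.07 with fluphenazine. Such calls were common in the series. Among the 126 other exposures, Ddit3 and Trib3 were each called higher in 72, Gdf15 in 71 and Asns in 62. Fgf21 was called higher in 56 of them, Slc7a11 in 51 and Stc2 in 39. No gene of the list was called different between the compounds, whose median difference was -0.20. Of the 23 intervals, 12 lay within 1.5-fold (52.2%, against 91.1% of all genes). The repeat minus the first study at 1 d had a median of -0.54 over the list, and 7 of 23 intervals excluded 0 before adjustment, with 0 called.

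Other stress lists changed little. The share of all genes called, to set beside their counts, was 5.13% with chlorpromazine and 5.07% with fluphenazine. Of 18 endoplasmic reticulum chaperone genes, Dnajb9 was the only call, at 1.6-fold with chlorpromazine and 1.58-fold with fluphenazine. Zfand2a, an arsenite-inducible zinc finger gene, was the only heat shock gene of 11 called higher, at 2.09-fold and 2.06-fold, while the small heat shock protein gene Cryab was 2.04-fold lower with fluphenazine and had a log2 change of -0.35 with chlorpromazine. Among 15 NRF2 targets of the antioxidant response, none was called with chlorpromazine. With fluphenazine Slc7a11, already named, was called higher, while Gclc, which limits glutathione synthesis, was 1.53-fold lower and Nfe2l2, which encodes NRF2 itself, 1.57-fold lower. The difference between the compounds for Nfe2l2 was -0.48 (95% interval -0.71 to -0.24), with an adjusted p of 0.45. None of 12 p53 targets was called with either compound.

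The 26 genes called in all 3 comparisons were all lower. Sult1a1, the phenol sulfotransferase that conjugates drugs and hormones, led them. Its chlorpromazine arrays read 7.58, 7.49 and 7.91 at 0.67 d and 6.77, 6.73 and 6.62 at 1 d, against 9.87 to 11.87 (median 10.44) in vehicle. Fluphenazine arrays read 8.72, 9.06 and 9.05 at 0.67 d and 7.17, 7.99 and 7.38 at 1 d, against 9.75 to 11.3 (median 10.58), and repeat arrays read 7.02 to 8.76 (median 7.85) against 9.78 to 11.44 (median 10.9). Treated and vehicle arrays of Sult1a1 did not overlap in any of the 3. The folds were 10.7, 5.23 and 7.8 lower. Fluphenazine minus chlorpromazine was 1.03 (95% interval 0.34 to 1.71, adjusted p 1), and Sult1a1 was also called lower in 81 of the 126 other exposures.

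Aldh1a1, which oxidizes retinal to retinoic acid, read 6.16 to 7.71 (median 7.01) with chlorpromazine against 8.71 to 10.85 (median 9.74). With fluphenazine Aldh1a1 read 5.7 to 7.08 (median 6.33) against 8.05 to 10.03 (median 9.26), and both pairs of groups were separate. It was 6.32-fold and 7.63-fold lower, and 4.91-fold in the repeat, with an adjusted p of 0.0269 that became 0.00137 with the block. Hao1, the glycolate oxidase of liver peroxisomes, read 7.23 to 8.61 (median 7.77) with chlorpromazine against 9.31 to 10.61 (median 10.02), and 7.2 to 8.9 (median 7.95) with fluphenazine against 9.59 to 10.47 (median 10.01). Hao1 was 4.3-fold, 4.19-fold and, in the repeat, 3.1-fold lower. Mylk, the myosin light chain kinase, read 6.29 to 7.47 (median 7.07) with chlorpromazine against 8.48 to 9.46 (median 8.77), and 6.24 to 7.39 (median 6.81) with fluphenazine against 7.89 to 9.16 (median 8.86). Mylk was 3.7-fold, 3.95-fold and 2.62-fold lower, without overlap between treated and vehicle arrays. Among the 126 other exposures, Mylk was called lower in 84, Hao1 in 83 and Aldh1a1 in 67, and higher in 1, 2 and 8.

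Other genes that fell in all 3 comparisons had roles across the hepatocyte's metabolism. Sult1b1, the thyroid hormone sulfotransferase, was 7.14-fold, 3.6-fold and 4.76-fold lower with chlorpromazine, fluphenazine and the repeat. Slco1b2, an uptake carrier of bile acids and drugs, read 5.67 to 7.1 (median 6.01) with chlorpromazine against 7.64 to 9.57 (median 8.33) and 5.38 to 8.38 (median 7.04) with fluphenazine against 7.42 to 8.94 (median 8.24). Slco1b2 overlapped its controls only with fluphenazine, and was 4.26-fold, 2.22-fold and 3.71-fold lower. Acot12, which hydrolyses acetyl-CoA, read 6.36 to 7.47 (median 6.59) with chlorpromazine against 7.97 to 8.93 (median 8.45), and was 3.26-fold, 3.09-fold and 2.44-fold lower. Dpys, of pyrimidine breakdown, was 3.57-fold, 2.61-fold and 3.11-fold lower, and Dmgdh, of choline breakdown, 3.34-fold, 2-fold and 3.16-fold. Cbs, which starts the conversion of homocysteine to cysteine, was 2.45-fold, 2.54-fold and 2.73-fold lower. Vil1, the microvillar protein villin, was 2.78-fold, 2.72-fold and 4.47-fold lower. Slc25a23, a mitochondrial carrier, was 3.02-fold, 3.38-fold and 2.34-fold lower, and Serpinf2, the plasmin inhibitor, 2.72-fold, 2.36-fold and 2.83-fold. Lower calls of these genes were common in the series. Among the 126 other exposures, Cbs was called lower in 78, Dpys and Slc25a23 each in 76, and Vil1 and Serpinf2 each in 75. Acot12 was called lower in 71, Slco1b2 in 70, Sult1b1 in 68 and Dmgdh in 64. None of these genes was called higher in more than 4 of them.

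**Figure D4:**
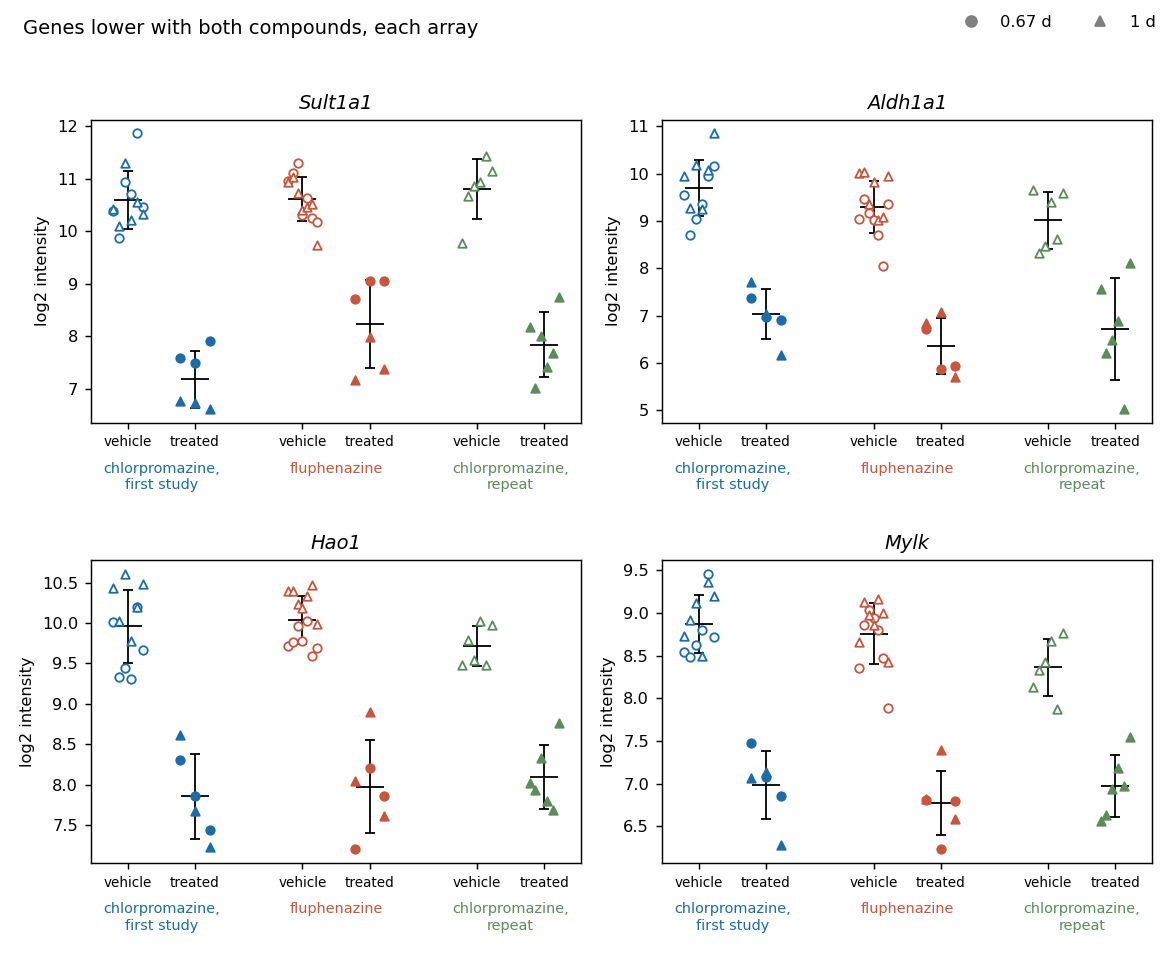
Log2 intensity of Sult1a1, Aldh1a1, Hao1 and Mylk on every array, vehicle (open) and treated (filled), by study; circles are 0.67 d and triangles 1 d, bars give the mean and SD. In both first studies all treated arrays of these 4 genes lie below their vehicle arrays.

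A few large changes differed in size between the compounds, without passing the test of the difference. Cyp2c12, a P450 known for its sex-dependent level in rat liver, was 8.51-fold lower with chlorpromazine, and with fluphenazine its log2 change was -1.24 with an adjusted p of 0.143. The difference for Cyp2c12 was 1.85 (95% interval 0.32 to 3.37, adjusted p 1). Gna14, a G protein alpha subunit, was 5-fold lower with chlorpromazine and 8.68-fold lower with fluphenazine. Tm4sf4, a membrane protein of the tetraspan family, was 2.14-fold and 4.33-fold lower, with a difference of -1.01 (95% interval -1.49 to -0.53, adjusted p 0.294). Gstt3, a glutathione transferase, was 6.38-fold and 2.66-fold lower, with a difference of 1.26 (0.20 to 2.33). Among other genes that rose, Bcat1, a transaminase of branched-chain amino acids, was 3.68-fold and 2.69-fold higher, and Rsad2, the antiviral protein viperin, 3.5-fold and 3.25-fold. Myl9, a myosin light chain, was 3.28-fold lower in the repeat.

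The constitutive P450s of the liver were below vehicle as a list: all 14 measured genes were lower with both compounds and in the repeat. Their medians were -0.71, -0.43 and -0.53. Of these, 5 were called lower with chlorpromazine, 2 with fluphenazine and 0 in the repeat (2 with the block and without pair 5). Cyp4f1, a fatty acid hydroxylase, was 2.05-fold and 1.87-fold lower, and Cyp2d4 was 1.51-fold lower with both. Cyp2c11 and Cyp2c6v1, of steroid and drug oxidation, were 2.79-fold and 1.89-fold lower with chlorpromazine and had log2 changes of -0.54 and -0.22 with fluphenazine. Of 12 targets of the drug sensors PXR and CAR, 1 was called higher and 3 lower with chlorpromazine (2.22% and 2.91% of all genes). With fluphenazine 1 was called each way (1.79% and 3.28% of all genes). Their medians were -0.43 with chlorpromazine, where 2 of the 12 changes were positive, -0.03 with fluphenazine, where 4 were, and -0.17 in the repeat. The gene called higher was Abcb1a, the efflux pump P-glycoprotein. Abcb1a read 9.25 to 10.23 (median 9.46) with chlorpromazine against 7.46 to 9.4 (median 8.34), and 9.11 to 10.51 (median 9.68) with fluphenazine against 7.69 to 9.4 (median 8.47), so the lowest treated arrays lay within the vehicle range, and it was 2.41-fold and 2.52-fold higher.

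Bile acid genes fell in part. Of 19 measured genes, 5 were called lower with chlorpromazine (2.91% of all genes). With fluphenazine 4 were called lower (3.28% of all genes), all 4 shared, and 1 was called higher (1.79% of all genes). The list medians were -0.17 with chlorpromazine and -0.32 with fluphenazine, where 5 and 6 of the 19 changes were positive. In the repeat 1 was called lower, and 4 with the block. Baat, which joins bile acids to taurine or glycine, was 3.14-fold and 3.35-fold lower. Among the 126 other exposures, Baat was called lower in 76 and higher in 2. Slc10a1, the sodium-dependent bile acid importer NTCP, was 3.81-fold lower with chlorpromazine, and its log2 change with fluphenazine was -0.96 (adjusted p 0.0333). Abcb4, the exporter of phosphatidylcholine into bile, was 1.64-fold and 1.86-fold lower, and Cyp8b1, which makes cholic acid, 1.62-fold and 1.77-fold. Hsd3b7, of the same pathway, was 1.53-fold higher with fluphenazine, with a log2 change of 0.10 with chlorpromazine.

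Secreted and metabolic liver proteins were lower in the same arrays. All 26 complement and coagulation genes were below vehicle in all 3 comparisons, with medians of -0.49, -0.38 and -0.59, and 8 were called lower with each compound (7 shared). In the repeat 0 passed, and 5 with the block. Mbl2 and Mbl1, the mannose-binding lectins, were 3.94-fold and 3.22-fold lower (Mbl2) and 2.06-fold and 2.05-fold lower (Mbl1) with chlorpromazine and fluphenazine. Among the 126 other exposures, Mbl2 was called lower in 84 and Mbl1 in 73, and neither was called higher. C5 was 1.88-fold and 2.52-fold lower, and C8a 1.9-fold and 1.85-fold. Of 12 gluconeogenesis and urea cycle genes, 4 were called lower with each compound. To set beside the counts of this paragraph, the share of all genes called lower was 2.91% with chlorpromazine and 3.28% with fluphenazine. Cps1, the first enzyme of the urea cycle, was 2.88-fold and 2.41-fold lower, Arg1, the last, 2.71-fold and 2.05-fold, and Fbp1, of gluconeogenesis, 2.83-fold and 2.25-fold. Otc was 4.01-fold lower with chlorpromazine and had a log2 change of -0.99 (adjusted p 0.0224) with fluphenazine. Mttp, which loads lipid onto apolipoprotein B, was 2.26-fold and 3.15-fold lower, and Apob itself 1.86-fold and 2.24-fold. Of 18 hepatocyte markers, 5 were called lower with each compound, with medians of -0.30 and -0.19. Alb, the most abundant of plasma proteins, had log2 changes of -0.02 and 0.02. It read 14.31 to 14.36 on the clomipramine arrays, and 14.36 was the highest vehicle mean of any gene in both first studies. At the top of the scale a change could be missed.

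Targets of PPARa, the sensor of fatty acids, split. With chlorpromazine 5 of 24 were called lower (2.91% of all genes). With fluphenazine 4 were called lower and 3 higher (3.28% and 1.79% of all genes), and the medians were -0.44 and -0.17. Vnn1, the pantetheinase, was 2.73-fold and 2.14-fold lower, Cyp4a3, a fatty acid hydroxylase, 2.27-fold and 1.91-fold, and Acaa2, a mitochondrial thiolase, 1.77-fold and 1.64-fold. Pdk4, the kinase that shuts pyruvate dehydrogenase in fasting, was 3.04-fold higher with fluphenazine and 1.74-fold, with an adjusted p of 0.248, with chlorpromazine. Of 15 lipid droplet proteins, 2 were called higher and 3 lower with chlorpromazine (2.22% and 2.91% of all genes). With fluphenazine 1 was called higher and 3 lower (1.79% and 3.28% of all genes). Mgll, the monoglyceride lipase, was 2.35-fold and 2.96-fold lower, and Cideb, which grows droplets and lipoproteins, 1.56-fold and 1.82-fold. G0s2, an inhibitor of triglyceride lipase, was 2.06-fold higher with chlorpromazine and 1.37-fold, uncalled, with fluphenazine. Among 11 acute phase proteins, Crp was 2.13-fold lower with chlorpromazine and Hamp, the iron hormone hepcidin, 1.87-fold higher with fluphenazine. With the other compound, the uncalled log2 changes were -0.24 for Crp (fluphenazine) and 0.72 for Hamp (chlorpromazine).

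Genes of the receptors and channels that antipsychotics bind read low on these arrays. Their vehicle means in the first chlorpromazine study ran from 3.63 to 6.29 (median 4.685), against a median of 6.975 over all genes. At such levels a change could be missed. Of 14 measured receptors and channels, Adra1b, the alpha-1B adrenergic receptor of liver, was the only call. It was 1.64-fold lower with chlorpromazine and 1.5-fold lower with fluphenazine. For this and the next lists, the share of all genes called was 5.13% with chlorpromazine and 5.07% with fluphenazine. Drd2, the dopamine receptor that both drugs block, read 5.13 to 5.5 with chlorpromazine against 4.85 to 5.6 in vehicle, and 5.15 to 5.48 with fluphenazine against 4.84 to 5.46, so its groups overlapped. None of 12 genes of calmodulin and calcium signalling was called. Of 16 genes of DNA replication and mitosis, Ccnd1, cyclin D1, was the only call, 2.63-fold and 3.32-fold lower. Of 13 actin, SRF and TGFb targets, 1 was called lower with chlorpromazine and 3 with fluphenazine, and the contractile protein gene Tagln was 2.57-fold lower with fluphenazine.

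The mean over 10 Kupffer cell markers lay between 5.77 and 5.92 with chlorpromazine against 5.76 to 6.09 in vehicle, and between 5.87 and 6.19 with fluphenazine against 5.96 to 6.72. Lyz2, the macrophage lysozyme, was 2.37-fold lower with chlorpromazine and had an uncalled log2 change of -0.17 with fluphenazine. Cd68, a lysosomal protein of macrophages that other cells also make, was 1.62-fold higher with fluphenazine (log2 change 0.70). With chlorpromazine the log2 change of Cd68 was 0.75, which was not called. The mean over 8 endothelial markers lay between 4.75 and 5.24 (median 4.98) with chlorpromazine against 5.09 to 5.71 (median 5.26) in vehicle, and between 4.87 and 5.55 (median 5.15) with fluphenazine against 5.24 to 6.11 (median 5.54). Of these 8 markers, 6 were below vehicle with chlorpromazine and 8 with fluphenazine, and 2 were called lower with chlorpromazine and 1 with fluphenazine: Kdr, the VEGF receptor, by 1.61-fold and 2.28-fold, and Lyve1, of sinusoids, by 2.61-fold with chlorpromazine. With fluphenazine the log2 change of Lyve1 was -1.105, which was not called. The share of all genes called lower was 2.91% with chlorpromazine and 3.28% with fluphenazine. None of 8 stellate cell and 6 cholangiocyte markers was called. The part of these cells in the other changes was not tested.

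**Figure D5:**
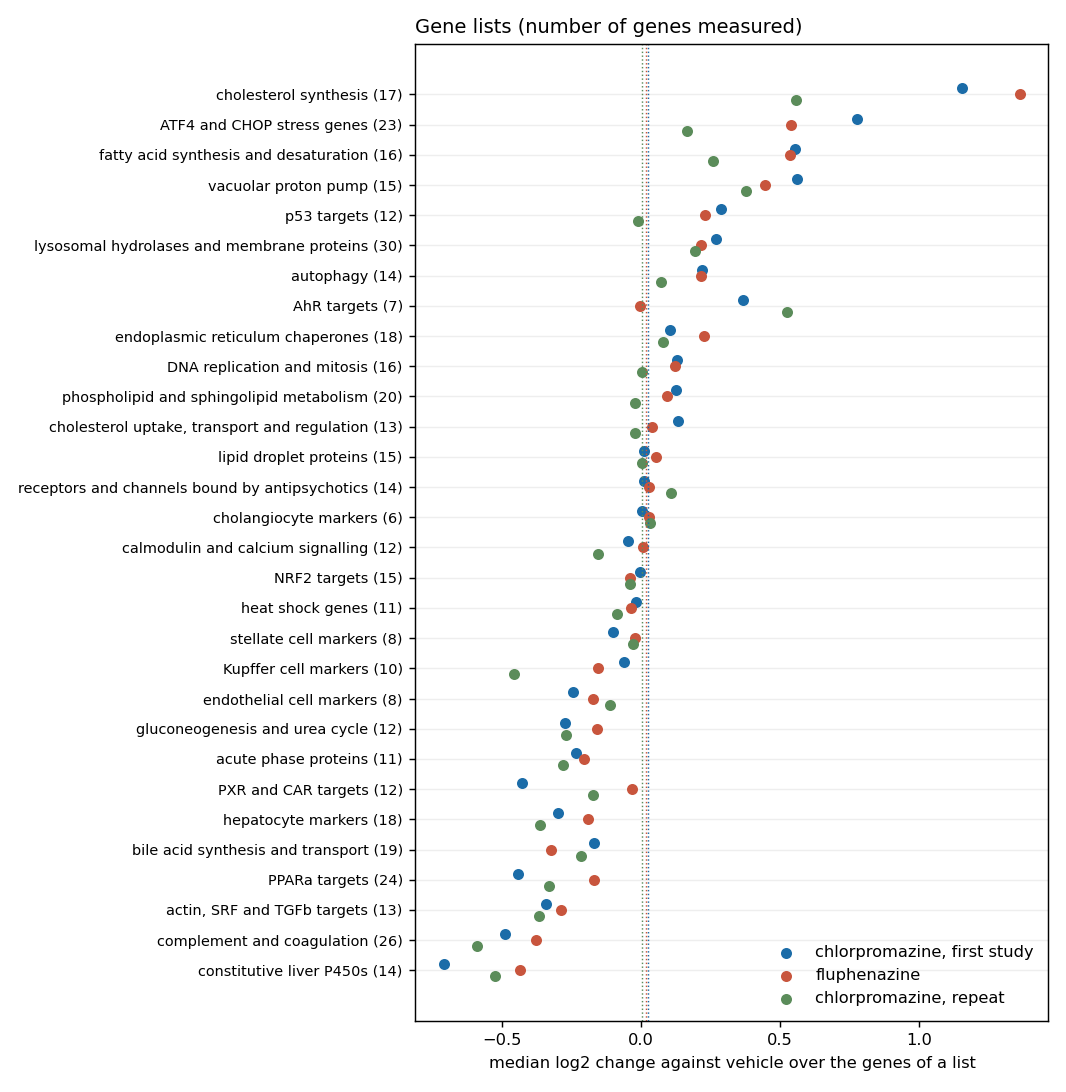
Median log2 change against vehicle over the measured genes of each of 30 gene lists (rows, with the number of genes), for chlorpromazine in the first study, fluphenazine and the chlorpromazine repeat; dotted lines mark the median of all genes tested. Cholesterol synthesis has the highest medians in the first studies, at 1.15 and 1.36, and the AhR list median is 0.37 with chlorpromazine and -0.0045 with fluphenazine.

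The repeat and the first study could be compared at 1 d, where chlorpromazine was at 43.9 uM in both. No gene was called different, with 154 at an unadjusted p under 0.05, and the typical 95% interval of that difference was 0.50 log2 units to each side. Cyp1a1 differed by -0.0042 (95% interval -1.72 to 1.71). For the comparison of compounds in the first studies the typical interval was 0.24 to each side, and for fluphenazine against the repeat at 1 d it was 0.47, with 0 genes called and 90 at an unadjusted p under 0.05. This was 1 pair of compounds in 2 comparisons, each adjusted over all 14218 genes. The doses of 43.9 and 45 uM were taken as matched, being within 5% of each other.

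Exposure time made no called difference. Between 1 d and 0.67 d, 0 genes differed in their response to chlorpromazine and 0 to fluphenazine, with 231 and 472 genes at an unadjusted p under 0.05. The change in Sult1a1 went from -3.05 at 0.67 d to -3.78 at 1 d with chlorpromazine and from -1.74 to -3.03 with fluphenazine, a widening that did not pass (adjusted p 1 for both). Cholesterol synthesis medians were 1.11 and 1.12 at the 2 times with chlorpromazine and 1.40 and 1.32 with fluphenazine.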

How the data were processed

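RNA of primary rat hepatocytes was measured on Affymetrix rat genome arrays. The deposited log2 values were made by the authors from the arrays by robust multi-array averaging (RMA in the labels; the study's methods describe the frozen form of it with probe effects estimated from the whole collection), so each value also depends on arrays of other samples. Depth does not apply to arrays, and the number of arrays limits precision. Of 31099 probe sets, 20832 had 1 gene symbol in the platform annotation, 436 several and 9831 none. Genes with several probe sets (4526) were read from the brightest, giving 14218 genes.

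Groups came from the labels. Differences were fitted with limma 3.58.1 (R 4.3.3; lmFit and eBayes) with exposure time as a covariate, and differences between compounds as treated minus own controls in a joint model. Genes were called at an adjusted p of at most 0.01 (Benjamini-Hochberg over all genes) and at least 1.5-fold. Intervals are 95%. The scripts were tested on simulated data. The compounds and all 30 gene lists were chosen with earlier results of these data known, and lists are described by counts and medians without a test. Genes named are the 12 with the largest mean change among those called in all 3 comparisons, the 5 largest called in each direction per comparison, the calls between the compounds, and of each list the 4 called members with the largest changes and members whose role is described. Members named for their role, and other genes outside these ranks, were chosen after their values were seen. In the repeat, 6 of 6 same-numbered pairs, which share a hybridization day, correlated above 0.1 in their deviations. These correlations were 0.424 to 0.771, against a mean of -0.104 for different numbers, so the number was taken to pair them. The main fit of the repeat and its comparisons with the first studies left this pairing out. Only values given with the block come from fits that used it. Alternatives changed the scaling, the test, the fold bound, the probe set rule, the filter, the day blocks, the controls and the arrays used. Leaving out pair 5 of the repeat was chosen after seeing the data. No 2 of the 50 arrays correlated above 0.996. Promoter sequences are RefSeq's (GRCr8) and were found for 11734 genes.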

Additional observations from a re-analysis of the deposited data

Results flagged for a closer look

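Over 20 genes, 120 combinations of a gene and a group were checked. In 11 of them an array was set apart from the rest of its group by a gap large for the group's range, where chance gives about 5 in 100. Groups of 3 arrays, which include every treated group of both first studies, were not checked. In the repeat, treated replicate 5 was the array for 3 genes, low at 9.16 for Idi1, 6.27 for Rragd and 7.86 for Abcb1a. Vehicle replicate 5 of the repeat was low for Idi1 at 9.24, vehicle replicate 1 high for Acat2 at 8.15, and vehicle replicate 6 low for Atp6v0b at 9.93. Among the vehicle arrays of the first chlorpromazine study at 1 d, replicate 2 was high for Cyp1b1 at 6.19, replicate 6 low for Sqle at 9.04, and replicate 1 set apart for Ctns at 7.74. At 0.67 d, replicate 6 was low for Hsd17b7 at 5.72 and replicate 5 high for Mylk at 9.46.

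Between the compounds, the difference of fluphenazine minus chlorpromazine passed the test for Cyp1a1 (-4.94) and Tiparp (-0.97).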

How the results depend on the processing

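All 177 calls named by gene and comparison kept their direction under the alternatives, in 5143 values of 1 gene in 1 comparison under 1 setting. Of these values, 4709 were also calls. Most of these genes were named for large called changes, and the alternatives refit largely the same arrays. The kept direction was therefore close to given and is no independent support. With chlorpromazine the 730 calls became 223 at a 2-fold bound, 389 with 1 d arrays alone and 335 with 0.67 d arrays alone. With fluphenazine the 721 calls became 203 at a 2-fold bound and 431 at 1 d alone. For the repeat, the 30 calls became 55 with array medians subtracted, 3 with the methods' t-test at the same bounds, 17 with RNA extraction day as a block, and 215 with hybridization day or the replicate number as a block. Without both arrays of number 5 there were 106, and 535 with the block added. The 2 calls between the compounds became 1 at a 2-fold bound, 0 with hybridization day as a block, 0 at either time alone and 4 with fluphenazine control set 1 alone. Leaving out 1 array at a time gave 654 to 797 calls with chlorpromazine, 639 to 763 with fluphenazine, 6 to 95 in the repeat and 2 to 3 between the compounds. It gave 0 for the repeat minus the first study, for fluphenazine minus the repeat, and for both comparisons of times. The cause of these changes was not tested.

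The replicate number as a block gave 842 calls with chlorpromazine, 734 with fluphenazine, 215 in the repeat and 3 between the compounds (Cyp1b1 added), and 0 in each other comparison. With chlorpromazine in the first study, 3 of 3 same-numbered correlations at 1 d were above 0.1 (0.452 to 0.681, against a mean of -0.107 for different numbers) but 2 of 3 at 0.67 d, and with fluphenazine 3 of 6 at 0.67 d and 2 of 6 at 1 d. The numbers of the first studies were therefore not taken as pairs over both times. Precision limits what can be seen, most of all in the repeat. Its median standard error without the block was 0.174 log2 units, against 0.085 and 0.082 in the first studies. What made it larger was not tested.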
